A study of Mus musculus with 6 samples.

Results

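The Cyp4 family of cytochrome P450 enzymes was described in whole-liver RNA-Seq of mice with and without hepatocyte-directed disruption of Prdx2, the gene of the peroxide-reducing enzyme peroxiredoxin 2. The members were taken by gene symbol, from a list drawn up with earlier results of these data known. They are Cyp4a10, Cyp4a12a, Cyp4a12b, Cyp4a14, Cyp4a31, Cyp4a32, Cyp4f14, Cyp4f15 and Cyp4v3, 9 of the 52459 genes in the count table. All livers came from 8-month-old male C57BL6J mice of the Alb-Cre/Cas9 F1 generation. Cas9 depends there on Cre under the albumin promoter, a design meant to direct editing to hepatocytes. Editing in other liver cells was not tested here. At 4 to 5 weeks of age the mice received AAV8-U6-sgCtrl, carrying a control guide RNA, or AAV8-U6-sgPrdx2, carrying a guide against Prdx2, by vein. Both groups were then given the carcinogen diethylnitrosamine (DEN, 100 mg/kg) 3 weeks later. After another week they received 6 months of a choline-deficient, amino acid-defined high-fat diet (CDAHFD), so the groups shared the exposure to diet and carcinogen. The resulting disease was not the same, as the study reports a lower tumor burden and less liver fat in sgPrdx2 mice. Each group held 3 livers, sgCtrl 5.1, 7.1 and 7.2 and sgPrdx2 1.1, 1.3 and 3.2, one library per mouse.

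Cyp4 enzymes sit in the membrane of the endoplasmic reticulum and place a hydroxyl group on the last carbon, the omega carbon, of a fatty acid, taking electrons from NADPH through cytochrome P450 reductase. The product is oxidized further to a dicarboxylic acid, which peroxisomes shorten, so the pathway is a side route for fatty acids that mitochondria do not burn. Cyp4a10 and Cyp4a14 are classic targets of PPAR-alpha, the nuclear receptor that senses fatty acids, and rise in liver on fasting or with fibrate drugs. Cyp4a12a is the male-dominant hydroxylase of arachidonic acid, Cyp4f enzymes also inactivate leukotriene B4 and other eicosanoids, and Cyp4v3 is the mouse counterpart of human CYP4V2.

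The 6 Cyp4a genes lie side by side on chromosome 4 and the Cyp4f genes on chromosome 17, and copies within a cluster are so alike that reads cannot always be assigned to one of them. In the GENCODE M21 annotation of GRCm38, Cyp4a12a lies at chr4:115299046-115332815 (+), Cyp4a12b at chr4:115411624-115439034 (+), Cyp4a14 at chr4:115486200-115496142 (-), Cyp4a10 at chr4:115518264-115533649 (+), Cyp4a31 at chr4:115563649-115579015 (+) and Cyp4a32 at chr4:115600969-115621602 (+). Cyp4f15 lies at chr17:32685627-32703352 (+), Cyp4f14 at chr17:32905070-32917342 (-) and Cyp4v3 at chr8:45304944-45333216 (-). The coding sequences of Cyp4a12a and Cyp4a12b were identical at 98.5% of 1524 aligned positions, and those of Cyp4a10 and Cyp4a32 at 97.2% and of Cyp4a10 and Cyp4a31 at 96.6%. Cyp4f14 and Cyp4f15 shared 80.0%, Cyp4a10 and Cyp4a14 75.6%, and Cyp4a10 and Cyp4v3 51.7%.

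The following windows of 60 exon bases show how little separates the near-identical copies. They come from exon 6 of the Cyp4a12 pair, at chr4:115326628-115326687 (+) and chr4:115432881-115432940 (+), and the capitals mark the 4 positions that differ.
Cyp4a12a: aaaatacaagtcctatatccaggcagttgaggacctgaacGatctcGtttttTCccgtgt
Cyp4a12b: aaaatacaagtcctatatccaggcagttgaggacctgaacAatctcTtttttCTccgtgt

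The same is shown for exon 2 of Cyp4a10 (chr4:115519640-115519699, +), Cyp4a31 (chr4:115565020-115565079, +) and Cyp4a32 (chr4:115602270-115602329, +), where capitals mark the 9 positions at which at least 1 of the 3 genes differs. Each window was chosen as the stretch of 60 coding bases within 1 exon that held the most differing positions.
Cyp4a10: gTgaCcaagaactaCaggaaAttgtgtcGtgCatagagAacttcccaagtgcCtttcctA
Cyp4a31: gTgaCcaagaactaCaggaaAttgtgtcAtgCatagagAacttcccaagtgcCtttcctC
Cyp4a32: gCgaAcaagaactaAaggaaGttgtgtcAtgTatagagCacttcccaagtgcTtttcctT

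Cut into stretches of 50 bases, 48.9% of the Cyp4a12a transcript also occurred in another annotated gene, as did 49.4% of Cyp4a12b, 43.8% of Cyp4a32, 29.8% of Cyp4a10 and 20.6% of Cyp4a31. The share was 2.39% for Cyp4f14, 2.28% for Cyp4f15 and 0.235% for Cyp4a14. For Cyp4v3 it was 7.02%, all with the overlapping gene model Gm45753, which had 3 counts in the 6 livers together. Values of Cyp4a12a against Cyp4a12b, and of Cyp4a10, Cyp4a31 and Cyp4a32 against each other, are therefore uncertain, and are also given summed. The gene model Gm12837, on the other strand of Cyp4a12b, had 0 counts in every liver.

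The libraries held 37462102 to 56865293 counts on genes. Levels are given as CPM, the counts of a gene relative to the size of its library after TMM normalization over all genes, and sgPrdx2 was compared with sgCtrl by the edgeR quasi-likelihood test over 17032 genes, with genes called at a Benjamini-Hochberg adjusted p under 0.05. Prdx2 itself was at 109, 117 and 132 CPM in sgCtrl and at 99.0, 112 and 149 CPM in sgPrdx2 livers (log2 fold change 0.01, adjusted p = 0.983). Since Cas9 makes small insertions and deletions that need not lower RNA, this level does not check the labels. By protein staining, the study reports loss of PRDX2 in hepatocytes of sgPrdx2 mice, apart from islets it calls most likely nontransduced. Of 23 hepatocyte markers, all 23 had higher values in sgPrdx2 and 9 were called higher (median log2 fold change 0.94). Their summed level was 97900 to 107271 CPM in sgCtrl and 171643 to 225468 CPM in sgPrdx2 livers, with no marker at 0. Alb was the largest part of this sum (mean 60214 CPM in sgCtrl against 117782 CPM in sgPrdx2). Of 18 macrophage markers, all 18 had lower values and 5 were called lower (summed level 5772 to 6570 against 3907 to 4757 CPM). The level of hepatocyte markers thus moved with the groups, and its part in the Cyp4 values was not tested, although values scaled to the hepatocyte markers are given beside the results below. In whole liver, more hepatocytes and more Cyp4 RNA per hepatocyte cannot be told apart.

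Cyp4f15 and Cyp4a32 were higher in sgPrdx2 livers, by 2.07-fold and 1.87-fold, and no member was called lower. Cyp4f14, 2.37-fold, and Cyp4v3, 1.51-fold, also had every sgPrdx2 liver above every sgCtrl liver but missed the adjusted threshold. The PPAR-alpha targets Cyp4a10 and Cyp4a14 did not pass, and 1 sgCtrl liver held both their highest values. Of the 9 members, all 9 passed the filter on low counts, 6 had higher and 3 lower mean log values in sgPrdx2, and their median log2 fold change was 0.59, against -0.02 over all genes tested. The 2 members called higher compare with 1.79% of all genes called higher, and the 0 called lower with 1.54% called lower.

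At an unadjusted p under 0.05, edgeR gave 4 members higher (Cyp4a32, Cyp4f14, Cyp4f15 and Cyp4v3), where 13% of all genes were, and 1 lower (Cyp4a31), where 11.9% were. The same 4 members were those whose groups did not overlap with sgPrdx2 higher, which held for 16.7% of all genes, while 0 members were non-overlapping and lower, against 17.5% of all genes. DESeq2, run as an alternative on the same counts, called these 4 higher and 0 lower, where it called 7.58% of the genes with an adjusted p higher and 5.78% lower.

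**Figure D1:**
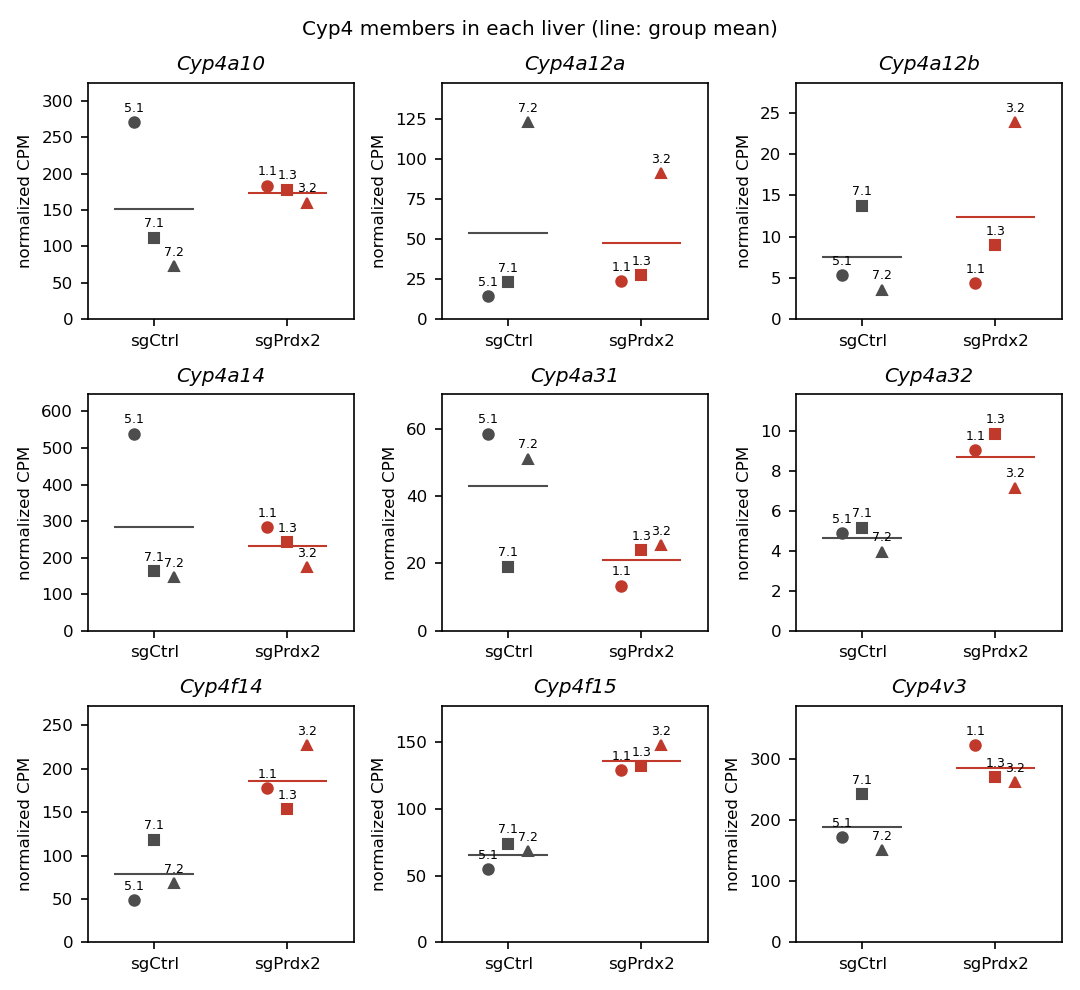
Normalized CPM (vertical axes, linear and starting at 0, one scale per gene) of the 9 Cyp4 members in each sgCtrl (gray) and sgPrdx2 (red) liver, with the liver's label above each point and a line at the group mean. The groups do not overlap for Cyp4a32, Cyp4f14, Cyp4f15 and Cyp4v3, liver 5.1 stands above the other livers for Cyp4a10 and Cyp4a14, and livers 7.2 and 3.2 stand above the others for Cyp4a12a.

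Among the Cyp4f members, which hydroxylate long-chain fatty acids and eicosanoids, Cyp4f15 was at 54.8, 73.8 and 68.3 CPM in sgCtrl livers 5.1, 7.1 and 7.2 and at 129, 132 and 148 CPM in sgPrdx2 livers 1.1, 1.3 and 3.2. The sgPrdx2 livers lay close together, and the lowest of them stood well above the highest sgCtrl liver. The log2 fold change was 1.05 ± 0.15 (SE, n = 3 livers per group) with an adjusted p of 0.0355 in edgeR. Without liver 5.1, 7.2, 1.1 or 1.3 the call was lost (log2 fold change 0.94 to 1.09, adjusted p = 0.0730 to 0.143). The difference was 0.67 with 6 housekeeping genes as the scale (adjusted p = 0.0526) and 0.16 with the hepatocyte markers as the scale (adjusted p = 0.564), so the rise of Cyp4f15 did not exceed that of the hepatocyte markers beyond its error.

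Cyp4f14, which has been studied as a leukotriene B4 omega-hydroxylase, was at 48.8, 118 and 68.4 CPM in sgCtrl livers 5.1, 7.1 and 7.2 and at 178, 153 and 227 CPM in sgPrdx2 livers 1.1, 1.3 and 3.2. The groups did not overlap, but both were more spread out than for Cyp4f15, with control liver 7.1 the nearest to the sgPrdx2 livers. The log2 fold change was 1.24 ± 0.32, with an adjusted p of 0.0708 in edgeR. The call depended on the settings, with an adjusted p of 0.00146 in DESeq2, 0.0184 without a filter on low counts and 0.0378 without liver 7.1, whose removal raised the log2 fold change to 1.66. With the threshold loosened to an adjusted p under 0.1 it was also called. Under the other alternatives it stayed uncalled, with an adjusted p of 0.0631 to 0.205, the latter without liver 7.2. With housekeeping scaling the log2 fold change was 0.84 (adjusted p = 0.114) and with the hepatocyte markers as the scale 0.38 (adjusted p = 0.191).

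Together, Cyp4f14 and Cyp4f15 were at 104, 192 and 137 CPM in sgCtrl livers and at 307, 285 and 375 CPM in sgPrdx2 livers. Among the other Cyp4f genes, Cyp4f13, which belongs to the same cluster, was at 46.7, 47.9 and 45.2 CPM in sgCtrl and 67.2, 62.5 and 96.9 CPM in sgPrdx2 livers, again without overlap (log2 fold change 0.70 ± 0.18, adjusted p = 0.0721). The remaining Cyp4f genes tested gave smaller or opposite differences. Cyp4f16 had a log2 fold change of 0.16, Cyp4f17 of 0.07 and Cyp4f18, which is known from neutrophils, of -0.31, with overlapping groups. Cyp4f39, at 0.319 CPM in sgCtrl and 0.173 CPM in sgPrdx2, had a log2 fold change of -0.90 without overlap (adjusted p = 0.205).

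The 250 bases upstream of the start sites of Cyp4f14 and Cyp4f15 are shown because these genes gave the highest fold changes of the family and lie in one cluster. Both are from the RefSeq promoter table (GRCm38.p6), at chr17:32917343-32917592 (-) and chr17:32685409-32685658 (+), and capitals mark the 1 match of each to CCAAT, the letters of the common CCAAT box, read on the other strand.
Cyp4f14: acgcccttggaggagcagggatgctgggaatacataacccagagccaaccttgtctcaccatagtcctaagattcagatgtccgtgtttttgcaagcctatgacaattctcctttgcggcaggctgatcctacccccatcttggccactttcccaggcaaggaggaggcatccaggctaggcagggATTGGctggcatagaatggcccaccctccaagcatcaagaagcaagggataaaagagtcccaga
Cyp4f15: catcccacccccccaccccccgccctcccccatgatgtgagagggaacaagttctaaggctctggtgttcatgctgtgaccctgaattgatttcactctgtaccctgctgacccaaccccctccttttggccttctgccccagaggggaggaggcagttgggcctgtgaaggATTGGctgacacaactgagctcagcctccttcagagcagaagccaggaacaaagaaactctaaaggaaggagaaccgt

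The match ends 60 bases before the start site in Cyp4f14 and 74 bases before it in Cyp4f15, and in both it stands in a run of the same letters, ggATTGGctg. The same run also stands in the window of Cyp4f18, whose log2 fold change was -0.31. CCAAT on the other strand was also found for Cyp4f13, Cyp4f16, Cyp4f37 and Cyp4a32. CCAAT occurs on either strand of 37.4% of the 32851 windows of that table, which also hold bases after the start site. The table holds windows for 4 members, those 2, Cyp4a32 and Cyp4v3. None of them contained AGGTCA, the half-site of nuclear receptors such as PPAR-alpha, on either strand, which 16.3% of all windows do, nor the direct repeat AGGTCANAGGTCA, found in 0.0396% of all windows. TATAAA was found on the other strand in Cyp4a32 and on either strand in 13.6% of all windows.

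Cyp4v3, whose human counterpart is mutated in Bietti crystalline dystrophy of the retina, was at 172, 243 and 151 CPM in sgCtrl livers 5.1, 7.1 and 7.2 and at 323, 271 and 262 CPM in sgPrdx2 livers 1.1, 1.3 and 3.2. The groups were close but did not overlap. The log2 fold change was 0.59 ± 0.20 with an adjusted p of 0.129 in edgeR and 0.0439 in DESeq2, and it was -0.31 with the hepatocyte markers as the scale.

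Cyp4a10 and Cyp4a14, the fibrate-inducible members, differed more among the sgCtrl livers than between the groups. Cyp4a14 was at 539, 164 and 147 CPM in sgCtrl livers 5.1, 7.1 and 7.2 and at 284, 243 and 173 CPM in sgPrdx2 livers 1.1, 1.3 and 3.2. Cyp4a10 followed the same order in sgCtrl livers, at 271, 112 and 73.1 CPM, and was at 183, 178 and 160 CPM in sgPrdx2 livers. For both genes liver 5.1 lay above and the other sgCtrl livers lay below every sgPrdx2 liver.

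The log2 fold change was -0.28 ± 0.48 for Cyp4a14 (adjusted p = 0.743) and 0.19 ± 0.42 for Cyp4a10 (adjusted p = 0.798). Without liver 5.1 they were 0.59 ± 0.23 and 0.91 ± 0.22, with an unadjusted p of 0.0400 and 0.00403 in edgeR. Neither was called, in a fit that called 0 genes in either direction. The sign for Cyp4a14 thus rested on that liver. A difference of about the size of the standard errors in either direction cannot be told from the spread between livers.

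Among the sgCtrl livers, most other known PPAR-alpha targets were also highest in liver 5.1. Of 32 target genes tested, 28 (87.5%) had their highest sgCtrl value in liver 5.1, against 34.4% of all genes tested. Acot3, a peroxisomal thioesterase gene, was at 62.7 CPM in liver 5.1 and at 3.60 and 2.97 CPM in the other sgCtrl livers, and Pex11a, a gene of peroxisome division, was at 166 CPM against 65.5 and 63.6 CPM. The same held for 8 of 11 lymphocyte markers (72.7%), 14 of 20 genes of the onward route of omega-oxidized acids (70%), 6 of 9 cholangiocyte markers and 4 of 6 P450 partner genes (66.7% each), but for 3 of 23 hepatocyte markers (13%). Over all 6 livers, 13 of the 32 targets (40.6%) were highest in liver 5.1 and 12 (37.5%) in sgPrdx2 liver 3.2, against 20.9% and 30% of all genes tested.

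Between the groups, 0 of the 32 targets were called in either direction by edgeR, with 5 higher and 5 lower at an unadjusted p under 0.05, and their median log2 fold change was 0.12. The genes with the smallest p were Cidec, a lipid droplet protein gene, with -0.95 (66.9 against 34.5 CPM, adjusted p = 0.0699), Fabp1, the liver fatty acid-binding protein gene, with 1.17 (1838 against 4149 CPM, adjusted p = 0.0722), and Cyp8b1, the sterol 12-alpha-hydroxylase gene of bile acid synthesis, with 1.24 (104 against 245 CPM, adjusted p = 0.0771). Ppara itself was at 37.4, 42.5 and 25.3 CPM in sgCtrl and 49.4, 42.2 and 23.5 CPM in sgPrdx2 livers, which overlap (log2 fold change 0.13, adjusted p = 0.802). Of the receptor and 8 of its partners, 0 were called, the smallest p being those of Creb3l3 (0.75, adjusted p = 0.0891), Rxra (0.47, adjusted p = 0.0983) and Ppargc1b (0.63, adjusted p = 0.154).

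**Figure D2:**
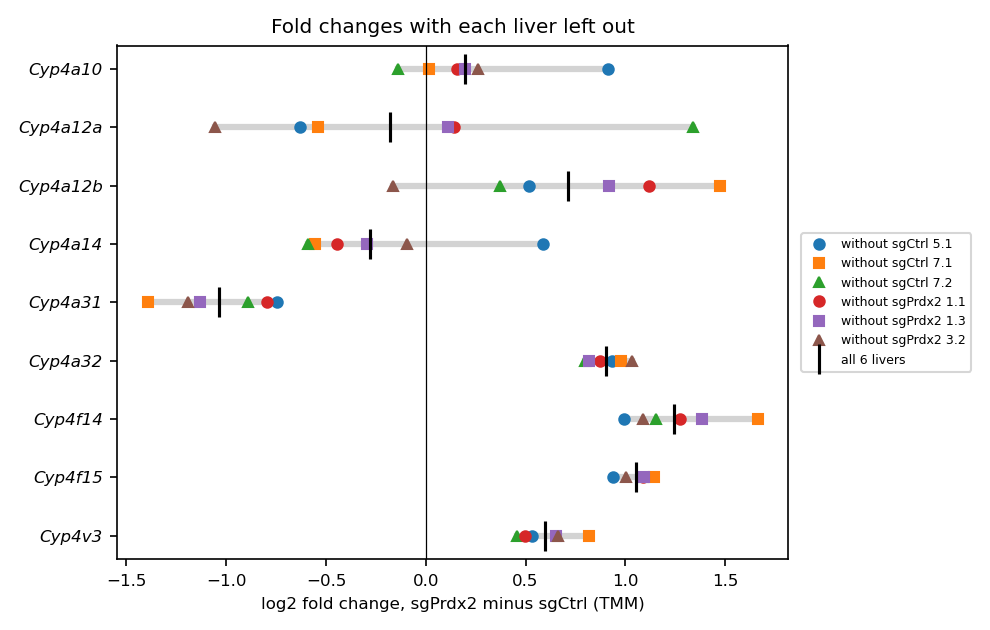
Log2 fold change between sgPrdx2 and sgCtrl livers (horizontal axis, TMM-normalized edgeR fit) for each member with all 6 livers (black bar) and with each liver left out in turn (colored symbols), and the range over the 6 omissions in gray. Cyp4f14, Cyp4f15, Cyp4a32 and Cyp4v3 stay above 0 and Cyp4a31 below 0 throughout, whereas Cyp4a12a runs from -1.06 without liver 3.2 to 1.34 without liver 7.2.

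Cyp4a31 and Cyp4a32, neighbors of Cyp4a10 and near copies of it, gave opposite signs. Cyp4a31 was at 58.6, 19.0 and 51.1 CPM in sgCtrl livers 5.1, 7.1 and 7.2 and at 13.3, 23.9 and 25.5 CPM in sgPrdx2 livers 1.1, 1.3 and 3.2. Livers 5.1 and 7.2 were the high ones, and sgCtrl liver 7.1 lay among the sgPrdx2 livers. The log2 fold change was -1.04 ± 0.41, which edgeR did not call (unadjusted p = 0.0360, adjusted p = 0.172).

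Cyp4a32, the least expressed of the 3, was at 4.89, 5.16 and 3.98 CPM in sgCtrl and at 9.07, 9.89 and 7.19 CPM in sgPrdx2 livers, without overlap. The log2 fold change was 0.90 ± 0.18 with an adjusted p of 0.0471 in edgeR, just under the threshold. Leaving out any one of livers 5.1, 7.1, 7.2, 1.1 and 1.3 lost the call (log2 fold change 0.80 to 0.98, adjusted p = 0.0688 to 0.168). With the hepatocyte markers as the scale it was -0.02.

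Because reads may be divided arbitrarily among Cyp4a10, Cyp4a31 and Cyp4a32, their counts were also summed. The sum was at 335, 136 and 128 CPM in sgCtrl and 206, 212 and 193 CPM in sgPrdx2 livers, and its log2 fold change was 0.03 ± 0.35 (adjusted p = 0.968). The change called for Cyp4a32 was thus not seen in the sum, of which Cyp4a32 is a minor part.

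Cyp4a12a, the male-dominant arachidonic acid hydroxylase, was high in 1 liver of each group. It was at 14.3, 23.0 and 123 CPM in sgCtrl livers 5.1, 7.1 and 7.2 and at 23.6, 27.5 and 90.9 CPM in sgPrdx2 livers 1.1, 1.3 and 3.2. Livers 7.2 and 3.2 stood above all others, and the log2 fold change was -0.18 ± 0.82 (adjusted p = 0.908). Cyp4a12b, its near copy, was at 5.32, 13.7 and 3.56 CPM in sgCtrl and at 4.35, 8.95 and 23.9 CPM in sgPrdx2 livers, so it was highest in liver 3.2 but lowest in liver 7.2.

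The fold change of Cyp4a12b was 0.71 ± 0.67 on the log2 scale (adjusted p = 0.532). The sum of the pair was at 19.6, 36.7 and 127 CPM in sgCtrl and at 28.0, 36.5 and 115 CPM in sgPrdx2 livers, which differed by -0.03 ± 0.73 on the log2 scale (adjusted p = 0.984). The pair as a whole therefore kept the pattern of Cyp4a12a, with 1 high liver in each group.

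Other male-biased liver genes followed liver 3.2 but not liver 7.2. Of 14 tested, 12 (85.7%) had their highest value of all livers in liver 3.2, as 30% of all genes tested did. So did 12 of the 23 hepatocyte markers (52.2%). Serpina1e, a male-biased protease inhibitor gene, was at 36.7, 203 and 52.2 CPM in sgCtrl livers 5.1, 7.1 and 7.2 and at 355, 320 and 891 CPM in sgPrdx2 livers 1.1, 1.3 and 3.2. All 14 had higher mean log values in sgPrdx2 (median log2 fold change 1.12), and edgeR called 0 of them, with 5 at an unadjusted p under 0.05. The smallest p were those of Serpina1e (2.42, adjusted p = 0.0911), the peroxisomal hydrolase gene Nudt7 (1.18, adjusted p = 0.124) and Hsd3b5 (2.51, adjusted p = 0.141), a steroid dehydrogenase gene that stayed under 3 CPM in every liver. Of 10 female-biased genes tested, 6 had lower and 4 higher values, and 1, Prom1, was called lower. In liver 7.2, 4 of them (40%) had their highest value, against 11.4% of all genes tested. Of the others, 3 were highest in liver 1.1, 2 in liver 5.1 and 1 in liver 3.2.

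**Figure D3:**
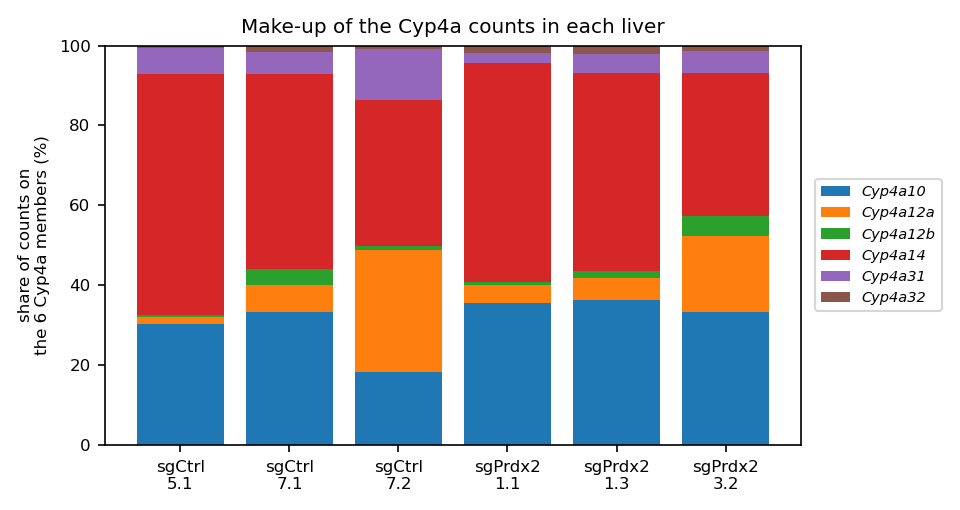
Share of the counts on the 6 Cyp4a members (vertical axis, percent, not corrected for gene length) taken by each gene in each liver, stacked from 0 to 100. Cyp4a14 takes 60.4% in sgCtrl liver 5.1 and 36.0% in sgPrdx2 liver 3.2, and Cyp4a12a takes 30.6% in liver 7.2 and 18.9% in liver 3.2 against 1.60% to 6.84% in the others.

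The make-up of the Cyp4a counts differed between livers of the same group. Cyp4a14 took 60.4%, 48.6% and 36.6% of them in sgCtrl livers 5.1, 7.1 and 7.2 and 54.8%, 49.4% and 36.0% in sgPrdx2 livers 1.1, 1.3 and 3.2. Cyp4a10 took 30.3%, 33.3% and 18.2% in sgCtrl and 35.4%, 36.2% and 33.4% in sgPrdx2 livers, just without overlap. The share of Cyp4a31 also did not overlap, at 6.55%, 5.65% and 12.7% in sgCtrl and 2.58%, 4.87% and 5.29% in sgPrdx2 livers, and as these genes share sequence such shares are uncertain. The total of the 6 genes was 894, 336 and 402 CPM in sgCtrl and 517, 491 and 481 CPM in sgPrdx2 livers, with the sgCtrl livers on both sides of the tightly grouped sgPrdx2 livers.

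Per kilobase of exon (RPKM, so that genes of different length can be set side by side), the order of levels in sgCtrl was Cyp4a14 (109 ± 85.3, SD, n = 3), Cyp4a10 (72.1 ± 49.8), Cyp4v3 (49.6 ± 12.6), Cyp4f14 (32.5 ± 14.8), Cyp4f15 (28.8 ± 4.29), Cyp4a12a (22.1 ± 24.9) and Cyp4a31 (17.1 ± 8.37), followed by Cyp4a12b (3.15 ± 2.27) and Cyp4a32 (3.04 ± 0.404). Within the first 7 and within the last 2 the ranges of neighbors overlapped, and the one gap between neighbors lay between Cyp4a31 and Cyp4a12b. In sgPrdx2 the order was Cyp4a14 (89.6 ± 21.5), Cyp4a10 (82.4 ± 5.68), Cyp4f14 (76.8 ± 15.6) and Cyp4v3 (74.9 ± 8.59), then Cyp4f15 (59.7 ± 4.41), then Cyp4a12a (19.5 ± 15.6), Cyp4a31 (8.33 ± 2.63), Cyp4a32 (5.67 ± 0.903) and Cyp4a12b (5.18 ± 4.27). Here Cyp4f15 was separated from its neighbors on both sides, and Cyp4f14 and Cyp4v3 could not be told from the Cyp4a leaders.

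Most of the other Cyp4 genes were low or silent. Of 12 further rows of the family, 6 passed the filter and 0 were called by edgeR, with 1, Cyp4f13, at an unadjusted p under 0.05, and their median log2 fold change was -0.12. Cyp4b1, which handles shorter fatty acids, was at 11.9 ± 0.794 CPM in sgCtrl and 9.53 ± 2.51 CPM in sgPrdx2 livers (SD, n = 3; log2 fold change -0.32). Cyp4x1 had 26 and Cyp4f40 had 19 counts in all livers together, of which 17 and 15 were in sgCtrl liver 5.1. Cyp4a29 had 0 counts in every liver, where 3 counts would be 0.0555 to 0.0921 CPM, and Cyp4a30b, Cyp4a28-ps and Cyp4f37 had 2, 3 and 7 counts.

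**Figure D4:**
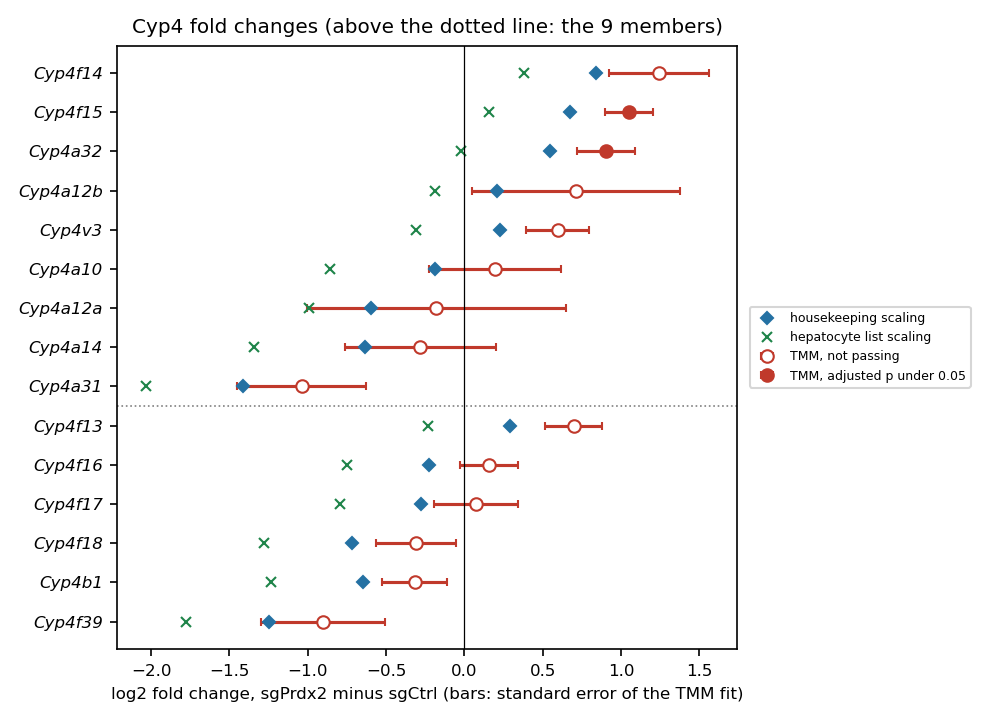
Log2 fold change between sgPrdx2 and sgCtrl livers (horizontal axis) of the 9 members, above the dotted line, and the 6 other tested Cyp4 genes, below it, with TMM normalization (circles with standard errors, filled where the adjusted p is under 0.05), with 6 housekeeping genes as the scale (diamonds) and with 23 hepatocyte markers as the scale (crosses). Housekeeping and hepatocyte scaling shift the median of all genes to -0.38 and -0.94, and only Cyp4f14 (0.38) and Cyp4f15 (0.16) of the 15 genes remain above 0 with the latter.

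A change of scale moves the log2 fold changes of all genes by nearly the same amount. The distance of the members from the median of all genes could therefore hardly change and tests nothing. Their median was 0.21 with housekeeping scaling, 0.59 above the median of all genes. With the hepatocyte markers as the scale the median of the members was -0.31, 7 of the 9 were below 0, and edgeR called Cyp4a10 (-0.86, adjusted p = 0.0330), Cyp4a12a (-0.99, adjusted p = 0.0455), Cyp4a14 (-1.34, adjusted p = 0.00340) and Cyp4a31 (-2.03, adjusted p = 5.42e-05) lower, while Cyp4f14 was at 0.38. On that scale 72% of all genes tested were called lower, so the 4 of 9 members are fewer than that share would give, and the calls are not particular to them.

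The proteins that serve all P450 enzymes had higher values without a call. Of 6 genes, all 6 were higher in sgPrdx2 (median log2 fold change 0.43) and 0 were called by edgeR, 2 of them being under an unadjusted p of 0.05. Cyb5a, the gene of the electron carrier cytochrome b5, gave 0.70 (731 against 1191 CPM, adjusted p = 0.0575), Cyb5b, its mitochondrial relative, 0.51 (adjusted p = 0.130), and Cyb5r3, cytochrome b5 reductase, 0.35 (adjusted p = 0.239). Por, the gene of the reductase that feeds electrons to Cyp4 enzymes, was at 489, 193 and 207 CPM in sgCtrl livers 5.1, 7.1 and 7.2 and at 302, 306 and 475 CPM in sgPrdx2 livers 1.1, 1.3 and 3.2, with overlap (0.28, adjusted p = 0.666). Its highest sgCtrl value was again in liver 5.1.

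For the enzymes that take omega-hydroxylated acids onward, from alcohol and aldehyde dehydrogenases to peroxisomal beta-oxidation, 20 of 22 genes were tested, 16 higher and 4 lower, with a median log2 fold change of 0.32. None were called by edgeR (0 in either direction, with 6 higher and 0 lower at an unadjusted p under 0.05). The smallest p belonged to Acaa1a, a peroxisomal thiolase gene (0.68, 142 against 227 CPM, adjusted p = 0.0599), Adh4 (0.94, 79.2 against 152 CPM, adjusted p = 0.0643) and Adh5 (0.64, 292 against 456 CPM, adjusted p = 0.0648). Aldh3a2, the fatty aldehyde dehydrogenase gene that makes the dicarboxylic acid, had -0.12 (adjusted p = 0.768).

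Other P450 genes of fatty acid metabolism had larger differences than the Cyp4 members in places. Of 15 tested, 14 were higher and 4 were called higher (median log2 fold change 0.96). The smallest p were those of Cyp2j9 (1.29, adjusted p = 0.0313), Cyp2e1, which hydroxylates next to the omega carbon (0.96, 4760 against 9272 CPM, adjusted p = 0.0409), and Cyp2c54, of the arachidonic acid epoxygenase family (2.41, adjusted p = 0.0491). Of 14 genes of eicosanoid formation, breakdown and reception, 5 were higher and 9 lower, 0 were called by edgeR, and 1 was higher and 5 lower at an unadjusted p under 0.05. Alox5ap, the activator of the leukotriene-forming 5-lipoxygenase, had -0.80 (35.3 against 20.4 CPM, adjusted p = 0.0709), the arachidonate-releasing phospholipase gene Pla2g4a -0.88 (7.73 against 4.17 CPM, adjusted p = 0.0838) and the soluble epoxide hydrolase gene Ephx2 0.54 (386 against 563 CPM, adjusted p = 0.0936).

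**Figure D5:**
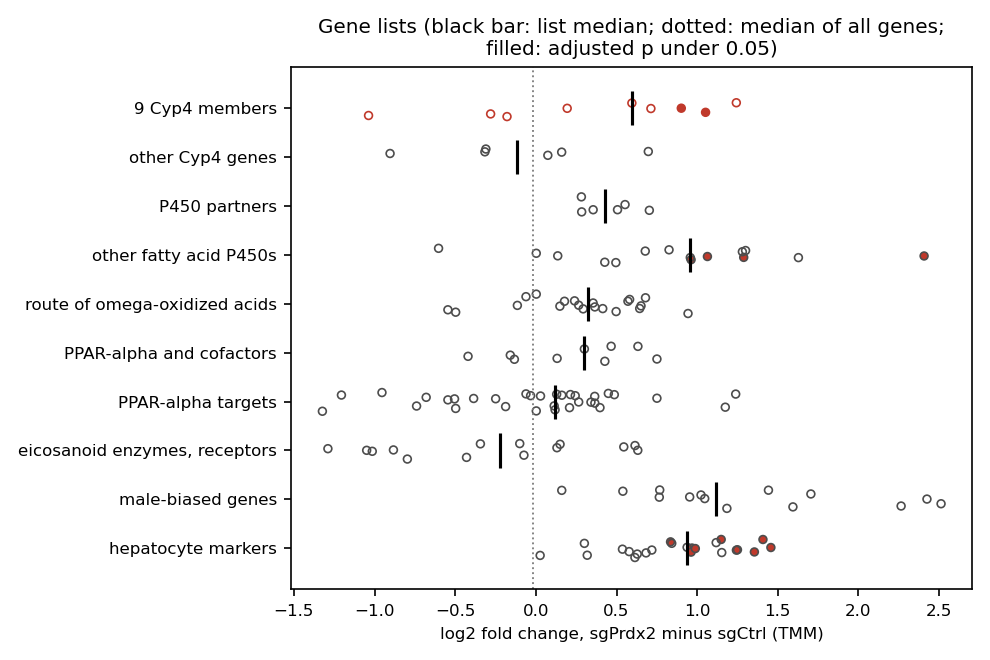
Log2 fold change between sgPrdx2 and sgCtrl livers (horizontal axis, TMM) of the tested genes in 10 lists, one circle per gene (vertical scatter only separates the circles), filled where the adjusted p is under 0.05, with the list median (black bar) and the median of all genes (dotted). The 9 members spread from -1.04 to 1.24 around a median of 0.59, the PPAR-alpha targets from -1.32 to 1.24 around 0.12, and the hepatocyte markers lie above 0 around 0.94.

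The medians of these lists also moved with the scale. With the hepatocyte markers as the scale, the PPAR-alpha targets had a median log2 fold change of -0.84, the P450 partners of -0.55, the genes of the onward route of -0.63 and the other fatty acid P450 genes of 0.02. Cyp2e1 is in both that last list and the hepatocyte markers, whose own median on this scale was also 0.02. The value of that list is therefore not independent of the scale. With the housekeeping genes as the scale they were -0.26, 0.01, -0.07 and 0.48. Against the shifted median of all genes, the housekeeping values were 0.12, 0.39, 0.32 and 0.86.

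The remaining cell type markers had lower values in sgPrdx2. The median log2 fold change was -0.56 for 14 stellate cell and fibroblast markers (12 lower, 1 called; summed level 2464 to 2822 against 1801 to 1870 CPM), -0.46 for 10 endothelial markers (9 lower, 1 called; 407 to 426 against 305 to 375 CPM) and -0.37 for 9 cholangiocyte markers (8 lower, 0 called at an adjusted and 4 at an unadjusted p under 0.05 in edgeR; 1705 to 1929 against 1283 to 1465 CPM). It was -0.15 for 11 lymphocyte markers (9 lower, 1 called; 94.6 to 111 against 55.7 to 79.2 CPM) and -0.42 for 7 neutrophil markers of 10 (6 lower, 0 called at an adjusted and 4 at an unadjusted p under 0.05 in edgeR; 23.8 to 31.9 against 20.7 to 24.3 CPM). Spp1, which is also among the 18 macrophage markers, was the largest part of the cholangiocyte sum (1578 against 1150 CPM). Ptprc was the largest part of the lymphocyte sum (66.6 against 36.3 CPM). The part of these marker lists in the Cyp4 values was not tested.

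For the most abundant member of each subfamily, the genes of at least 10 CPM with the most similar pattern were sought by Pearson's r of log2 CPM over the 6 livers, among 9260 genes. For Cyp4a14 they were Abcb1a, a drug efflux pump gene (r = 0.975, at 35.3, 16.9 and 14.4 CPM in sgCtrl and 20.0, 19.2 and 16.8 CPM in sgPrdx2 livers), Galnt15 (r = 0.965) and Fam76a (r = 0.964). For Cyp4f14 they were Slc9a8, a sodium-proton exchanger gene (r = 0.996), Oxnad1 (r = 0.995) and Psen2, a presenilin gene (r = 0.995, at 109, 164 and 124 CPM in sgCtrl and 208, 184 and 216 CPM in sgPrdx2 livers). For Cyp4v3 they were Pigr, the receptor gene that carries immunoglobulin A into bile (r = 0.993, at 673, 1114 and 611 CPM in sgCtrl and 1943, 1466 and 1403 CPM in sgPrdx2 livers), 9030617O03Rik (r = 0.992) and Fam136a (r = 0.992). These r describe 6 points of 2 groups that share the group difference and the normalization.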

How the data were processed

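RNA-Seq counts of 6 livers, 3 per group by the labels, were used. The authors deposited a table of counts per gene and liver, as whole numbers without normalization, and their own DESeq2 comparison (mean normalized count, log2 fold change, standard error, test statistic, p and adjusted p), which was not used. The submitters' processing notes name HISAT2, HTSeq, DESeq2 and GRCm38. Versions, annotation, strand setting and the treatment of reads with several matches are not given in the sources used here, and the last of these bears on near-identical Cyp4 copies. Columns of other series numbered 0.

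With R 4.3.3 and edgeR 4.0.16, genes passing filterByExpr (minimum count 10) were TMM-normalized and fitted by glmQLFit and glmQLFTest with no covariate, and p-values were adjusted over 17032 genes. Variation between livers of a group came to 0.213 (biological coefficient). Standard errors were obtained as |log2 fold change| over the root of the F statistic. The fit was tested on simulated counts. DESeq2 1.42.0, other scalings and filters, the omission of each liver and summed near copies were alternatives. The 6 housekeeping genes were those the study lists as reference genes for its prognostic liver signature. They include Atp5b, Cox8a and Ndufa2, genes of oxidative phosphorylation, a pathway the study reports as raised in the Prdx2 knockout livers. Whether these genes held constant here was not tested. No pair of libraries agreed within counting noise (chi-square per degree of freedom 34.8 to 283). Counts of up to 3 in a library were taken as the floor, which covers counting error only. RPKM divides CPM by the exon length in GENCODE M21, a gene annotation of GRCm38. Sequences came from that genome (coding windows) and from the RefSeq GRCm38.p6 promoter table.

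The members and gene lists were chosen with earlier results of these data known. Named were all members, further Cyp4 genes with at least 10 counts in all, the 3 genes of smallest p in each other list described gene by gene, Ppara, Por, Cyp8b1 and Prdx2, and the 3 genes most like each subfamily's leader. A result on 1 further gene of this rule is not reported here. Acot3, Pex11a, Aldh3a2 and the CCAAT motif were added after their values or sequences were seen, as were the counts of genes highest in 1 liver.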

Additional observations from a re-analysis of the deposited data

How the results depend on the processing

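The count of 2 members called higher changed with the settings, as did the share of all genes called higher (1.79% in the main fit). It became 1 with total counts only as the scale (1.21% of all genes), 0 with housekeeping (0.411%) and 0 with hepatocyte scaling (0.382%). It became 4 with DESeq2 (7.58% of the genes with an adjusted p) and 3 without a filter on low counts (2.25%). At an adjusted p under 0.1 it was 3 (5.66%), and at a log2 fold change of at least 1 it was 1 (0.904%). With near-identical members summed it was 1 (1.79%). Leaving out 1 liver gave 0 to 2. It was 0 without liver 5.1, 7.2, 1.1 or 1.3, each of which left edgeR with 0 calls over all genes, though 3 to 5 members were still higher at an unadjusted p under 0.05. At that threshold 2 members were higher with housekeeping and 0 with hepatocyte scaling. The share of all genes at that threshold was not counted for these alternatives. Without 7.1 Cyp4f14 and Cyp4f15 were called, where 1.24% of all genes were called higher. Without 3.2 Cyp4a32 and Cyp4f15 were called, where 1.85% were. The count of 0 called lower became 1 with total counts (Cyp4a31), where 17.9% of all genes were called lower, and 4 with hepatocyte scaling, where 72% were. The members' median log2 fold change of 0.59 became 0.23 with total counts, 0.21 with housekeeping scaling, -0.31 with hepatocyte scaling and 0.31 with near copies summed, and ran from 0.26 (without 3.2) to 0.82 (without 7.1). Total counts moved the median of all genes to -0.39, housekeeping scaling to -0.38 and hepatocyte scaling to -0.94.

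Signs turned for Cyp4a10 with total counts (-0.19), housekeeping (-0.19) and hepatocyte scaling (-0.86) and among its values with 1 liver left out (-0.14, without 7.2, to 0.91, without 5.1). They turned for Cyp4a12a without 7.2 (1.34), 1.1 (0.14) or 1.3 (0.11), its lowest value being -1.06 without 3.2, and for Cyp4a12b with hepatocyte scaling (-0.19), without 3.2 (-0.16, its highest being 1.48 without 7.1) and summed (-0.033). They also turned for Cyp4a14 without 5.1 (0.59, its lowest being -0.59 without 7.2), Cyp4a31 summed (0.028), and Cyp4a32 (-0.023) and Cyp4v3 (-0.31) with hepatocyte scaling. Cyp4f14 and Cyp4f15 kept their sign under all 15 alternatives to the fit run for them. The scalings differ in what they hold constant, and which is nearest to RNA per cell was not tested. With 3 livers per group, the call of Cyp4f15 was kept without 7.1 or 3.2 and that of Cyp4a32 without 3.2, and each was lost when any other liver was left out. No paired analysis was possible because the livers of the groups share no labels.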
